A study of Mus musculus with 15 samples.

Results

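The genes of retinoic acid metabolism and reception were followed across the upper and lower jaw primordia of the mouse embryo. They were chosen by symbol, as 10 listed genes that make, degrade, bind or sense retinoic acid. Of these, 9 had at least 1 probe set, with 12 probe sets among the 45101 on the array, and 11 of the 12 were among the 31677 kept after a filter on low signal. At least 1 probe set of each of the 9 genes was kept, and no probe set was assigned to Cyp26c1, which is not analysed here.

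Retinoic acid is made from vitamin A. Retinol is oxidised to retinaldehyde, which the ALDH1A dehydrogenases turn into retinoic acid, and the CYP26 cytochrome P450 enzymes break it down. Inside the cell the CRABP proteins bind it, and in the nucleus it activates the receptors RARA, RARB and RARG, which sit on DNA with an RXR partner. In the head it is supplied and removed region by region, and both excess and lack of it disturb the face and jaws.

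The arrays were run on total RNA of the first branchial arch at E10.5, midway through mouse gestation. The arch splits into a mandibular branch, from which the lower jaw forms, and a maxillary branch, which gives much of the upper jaw. There were 5 groups of 3 arrays, namely wild-type mandibular (WT_MNA), Dlx5/6 mutant mandibular (5_6_MNA), wild-type maxillary set 1 (WT_MXA), wild-type maxillary set 2 (WT_MXA2) and KO maxillary (KO_MXA). Dlx5 and Dlx6 are homeobox genes of the lower jaw. The labels gave no strain, no allele and no name for the gene lost in the KO, and they did not say what separated the 2 maxillary sets or whether an array held one embryo or a pool. The p-values therefore measure only the spread between these arrays, which may be technical. A level from whole tissue cannot tell fewer cells of a type from less RNA per cell.

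Several facts of the series bear on all values below. The bacterial dap controls averaged 287 to 339.7 on 9 arrays (the mandibular groups and maxillary set 1) and 2564 to 2821 on the other 6 (the KO and maxillary set 2), so the KO was compared with set 2 and the mandibular groups with set 1. Dlx5 signal was 10.9 ± 2.97 (SD, n = 3) in the Dlx5/6 mutant against 727 ± 40.5 in the wild-type mandibular arrays, and Dlx2 signal was 3.36 ± 0.180 in the KO against 422 ± 20.1 in set 2. All 10 crest mesenchyme markers passed the filter. Median array signal ran from 26.6 to 33.5.

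Cyp26a1 and Rarb are textbook targets of retinoic acid as well as parts of its pathway, so their start regions are shown before their levels. A promoter window in RefSeq (GRCm38.p6) was found for 8 of the 10 listed genes, each window running from 250 bases before to 50 bases after an annotated start. The windows were searched on both strands for a pair of units in the same direction, each either AGGTCA or AGTTCA, or one of the forms GGGTCA and also GGTTCA, with a spacer of 5 bases. This direct repeat is the best known form of the retinoic acid response element. It was found in the windows of 2 genes, Cyp26a1 and Rarb. Of 32851 windows of this length 0.0974%, or 0.115% of 27025 genes, held it. Both genes were known targets before the search, so these shares are background and test nothing. The 250 bases before each start are printed 5′ to 3′ in the direction of the gene, with the repeat in capitals. The Cyp26a1 window lies at chr19:37697558-37697807 on the plus strand and the Rarb window at chr14:16575477-16575726 on the minus strand.
Cyp26a1: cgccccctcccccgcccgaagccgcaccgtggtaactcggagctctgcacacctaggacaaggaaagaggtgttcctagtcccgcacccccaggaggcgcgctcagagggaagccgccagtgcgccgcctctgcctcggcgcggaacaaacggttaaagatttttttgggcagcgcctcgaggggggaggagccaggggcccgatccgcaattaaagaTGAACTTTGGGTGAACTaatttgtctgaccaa
Rarb: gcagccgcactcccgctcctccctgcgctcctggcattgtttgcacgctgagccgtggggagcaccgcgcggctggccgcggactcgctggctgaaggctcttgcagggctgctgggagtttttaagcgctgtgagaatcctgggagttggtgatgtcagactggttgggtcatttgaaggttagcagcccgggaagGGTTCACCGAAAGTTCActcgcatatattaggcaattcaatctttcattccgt

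The repeat covered bases -32 to -16 from the start in Cyp26a1, where it reads on the opposite strand, and bases -53 to -37 in Rarb. Read in the same direction they differ little, with 15 of 17 bases identical. Both were found with the same pattern, which fixes most bases of each unit, so much of this likeness was set by the search.
Cyp26a1 repeat: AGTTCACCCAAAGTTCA
Rarb repeat: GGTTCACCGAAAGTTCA
No repeat with a spacer of 1 or 2 bases was found in the windows of any of the 8 genes; such repeats were in 0.222% and 0.268% of all windows. A match describes letters and shows no binding.

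**Figure D1:**
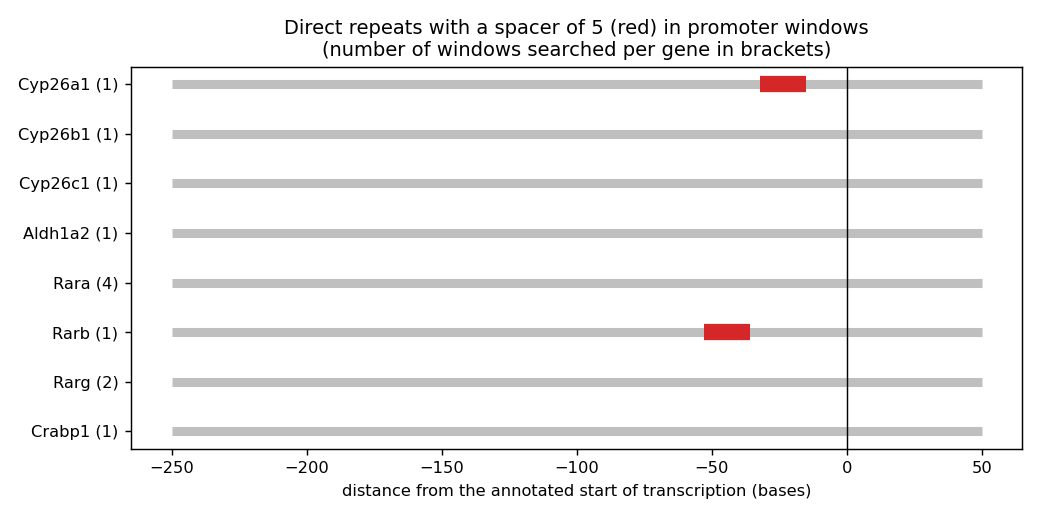
Map of the promoter windows searched for the 8 genes with a RefSeq window, with the distance from the annotated start in bases on the x axis. Grey bars are the windows, drawn once per gene, and red marks are direct repeats with a spacer of 5 bases, which lie at -32 to -16 in Cyp26a1 and at -53 to -37 in Rarb.

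Cyp26a1, which clears retinoic acid, was higher in both mutants than in the wild type of the same branch. Its signal on the 3 arrays was 60.02, 74.5 and 70.1 in the wild-type mandibular branch and 282, 267 and 286 in the Dlx5/6 mutant. In the maxillary branch it was 154, 164 and 153 in set 1, 154, 156 and 139 in set 2, and 253, 287 and 255 in the KO. The highest levels were thus on the 6 mutant arrays, whose groups overlapped each other, then came both wild-type maxillary sets, which also overlapped, and the wild-type mandibular arrays were lowest and apart from all others.

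In the Dlx5/6 mutant the mean Cyp26a1 signal was 4.08 times that of the wild-type mandibular branch. On the log2(signal + 32) scale used for all tests, which understates changes of dim genes, it rose by 1.62 ± 0.10 (SE; limma adjusted p = 1.08e-10). The size depended on the constant added, and ran from 1.04 with a larger constant to 1.90 with 8. The mutant also exceeded the wild-type maxillary branch, by 0.72 ± 0.10 over set 1 (adjusted p = 9.36e-05), a signal ratio of 1.77. In the KO maxillary branch Cyp26a1 rose by 0.71 ± 0.10 over set 2 (adjusted p = 0.000127), again a signal ratio of 1.77. The KO comparison shared no arrays with either Dlx5/6 comparison, while those shared the 3 Dlx5/6 arrays. All came from 1 model with a common normalization and a pooled spread, so they were not fully independent. The rise was larger in the Dlx5/6 mutant than in the KO, by 0.91 ± 0.13 (adjusted p = 2.93e-04 for the difference itself, limma). In the wild type Cyp26a1 was lower in the mandibular than in the maxillary branch by 0.90 ± 0.10 (adjusted p = 1.03e-06) and by 0.53 with the larger constant.

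**Figure D2:**
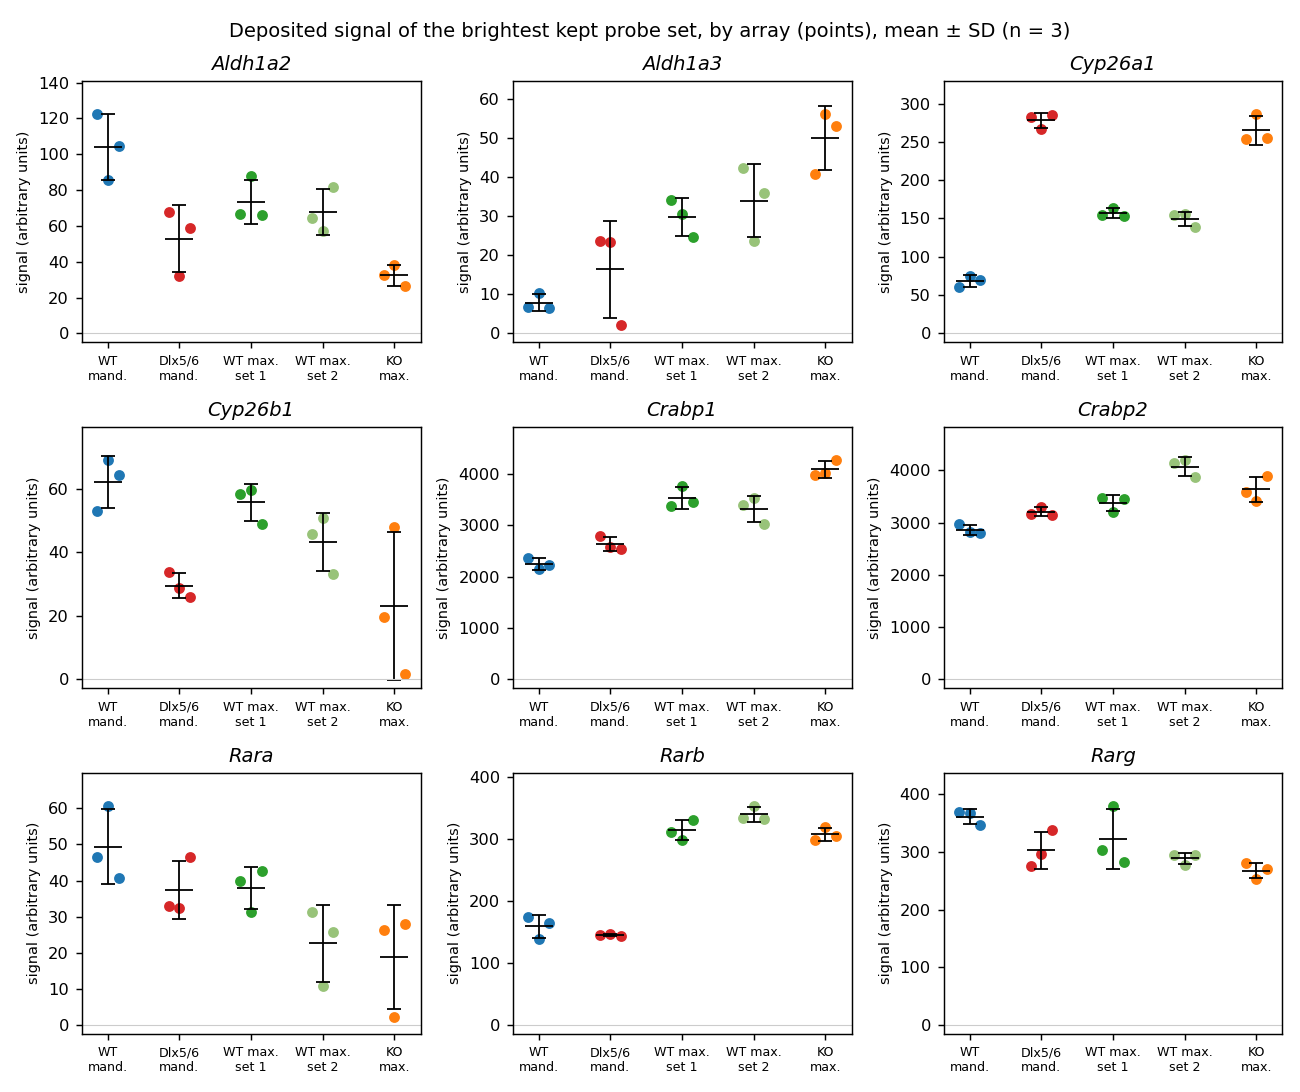
Deposited signal (arbitrary units, linear scale) of the brightest kept probe set of each of the 9 genes, by group; points are arrays, and the cross bars give the mean and SD of 3 arrays. Cyp26a1 is highest in both mutant groups, and Rarb is higher in all maxillary groups. Aldh1a2 has its lowest mean in the KO, whose arrays (26.2 to 38.3) overlap those of the Dlx5/6 mutant.

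Cyp26b1, the related enzyme that clears retinoic acid in developing limbs and skeleton, did not follow Cyp26a1. Its signal was 52.9, 69.1 and 64.2 in the wild-type mandibular branch, 33.7, 28.7 and 25.8 in the Dlx5/6 mutant, 58.4, 59.5 and 48.9 in set 1, and 45.8, 50.6 and 33.0 in set 2. In the KO it was 19.6, 47.8 and 1.62, a spread wider than that of any other group. All 3 Dlx5/6 arrays lay below the wild-type mandibular arrays, but the log2 difference of -0.61 was not called (95% interval -1.02 to -0.19, limma adjusted p = 0.128). It was called when only these groups were fitted (adjusted p = 0.0303) and without KO replicate 2 or 3, which enter the pooled spread (adjusted p = 0.0391 and 0.0368). The KO difference of -0.57 was not called either (95% interval -0.98 to -0.16, adjusted p = 0.253). It was -0.86 and called without KO replicate 2 (adjusted p = 0.0183), -0.28 without KO replicate 3 (adjusted p = 0.676), and -0.79 and called against set 1, which crosses the array sets (adjusted p = 0.0118). Cyp26c1, the third enzyme of the family, lies next to Cyp26a1 on chromosome 19.

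Aldh1a2, the main retinoic acid synthase of the early embryo, moved opposite to Cyp26a1 in both mutants. Its signal was 122, 85.4 and 105 in the wild-type mandibular arrays and 67.9, 31.9 and 58.6 in the Dlx5/6 mutant. It was 66.9, 87.6 and 66.1 in set 1, 64.5, 56.9 and 82.0 in set 2, and 32.5, 38.3 and 26.2 in the KO. Neither mutant group overlapped its wild-type group. Aldh1a2 fell by 0.68 ± 0.16 in the Dlx5/6 mutant (limma adjusted p = 0.0227) and by 0.69 ± 0.16 in the KO (adjusted p = 0.0412), and the difference between these changes was 0.01 (95% interval -0.47 to 0.49). Both calls were close to the threshold. The Dlx5/6 call was lost without mutant replicate 2 (-0.48, adjusted p = 0.184), wild-type replicate 1 (-0.58, adjusted p = 0.116) or wild-type replicate 3 (-0.69, adjusted p = 0.0656). The KO call was lost without any 1 of the KO arrays or without set 2 replicate 1 or 3 (adjusted p from 0.0793 to 0.218). It also passed the threshold no longer without Dlx5/6 replicate 3, wild-type mandibular replicate 3 or set 1 replicate 1 or 3, whose removal left the change at -0.69 (adjusted p from 0.0502 to 0.0549). Between the wild-type branches Aldh1a2 was not called (0.37, 95% interval 0.03 to 0.71, adjusted p = 0.351).

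Aldh1a3, the synthase of the eye and nasal region, was near the bottom of the scale. Its brightest kept probe set gave 6.77, 10.4 and 6.54 in the wild-type mandibular arrays, where none passed the array's 40th percentile, and 23.7, 23.4 and 2.16 in the Dlx5/6 mutant. It gave 34.3, 30.6 and 24.7 in set 1, 42.3, 23.7 and 36.1 in set 2, and 40.9, 56.2 and 53.2 in the KO. The maxillary arrays were all above the wild-type mandibular arrays. The difference of -0.60 from set 1 was not called (95% interval -0.98 to -0.21, adjusted p = 0.108), and that of -0.69 from set 2, across array sets, was (adjusted p = 0.0174). Without Dlx5/6 replicate 3 (adjusted p = 0.0438) or as the mean of its probe sets (adjusted p = 0.0259) the set 1 difference was called. A further kept probe set gave 2.14 to 10.9 in the wild-type mandibular branch and 17.2 to 19.3 in set 1, also apart and also not called (-0.43, adjusted p = 0.311). The third probe set stayed between 1.97 and 22.1 and failed the filter. For comparison, the 40th percentile of an array lay between 16.2 and 21.6. Of the 11 forebrain, eye and nasal placode markers on the array, Rax, Six6, Vax2, Otx2 and Fezf1 failed the filter. The summed signal of the list was 253 to 330.5 in the wild-type mandibular arrays and 189 to 317 in set 1. It was 250 to 323 in the Dlx5/6 mutant, 266 to 328 in set 2 and 199 to 219.5 in the KO. Of the 6 tested markers 1 was called lower in the KO, against 1.25% of all genes.

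Rarb, the receptor gene whose own promoter holds the repeat shown above, differed between the branches, with no change called in either mutant. Its signal was 174, 139 and 164 in the wild-type mandibular branch and 145, 147 and 143 in the Dlx5/6 mutant. In the maxillary branch it was 311, 299 and 331 in set 1, 334, 354 and 332 in set 2, and 298, 319 and 305 in the KO. All 9 maxillary arrays lay above all 6 mandibular arrays. Rarb was lower in the wild-type mandibular branch than in set 1 by 0.86 ± 0.09 (limma adjusted p = 6.62e-07), and it stood 0.94 ± 0.09 below set 1 in the Dlx5/6 mutant (adjusted p = 7.29e-07). No change was called in the Dlx5/6 mutant (-0.08, 95% interval -0.26 to 0.10, adjusted p = 0.802) or in the KO (-0.12, 95% interval -0.31 to 0.06, adjusted p = 0.71), although the 3 KO arrays all lay below set 2. Of the pair of genes with the repeat, then, Cyp26a1 differed 4.08 times in signal between Dlx5/6 mutant and wild-type mandibular arrays and Rarb 0.912 times.

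**Figure D3:**
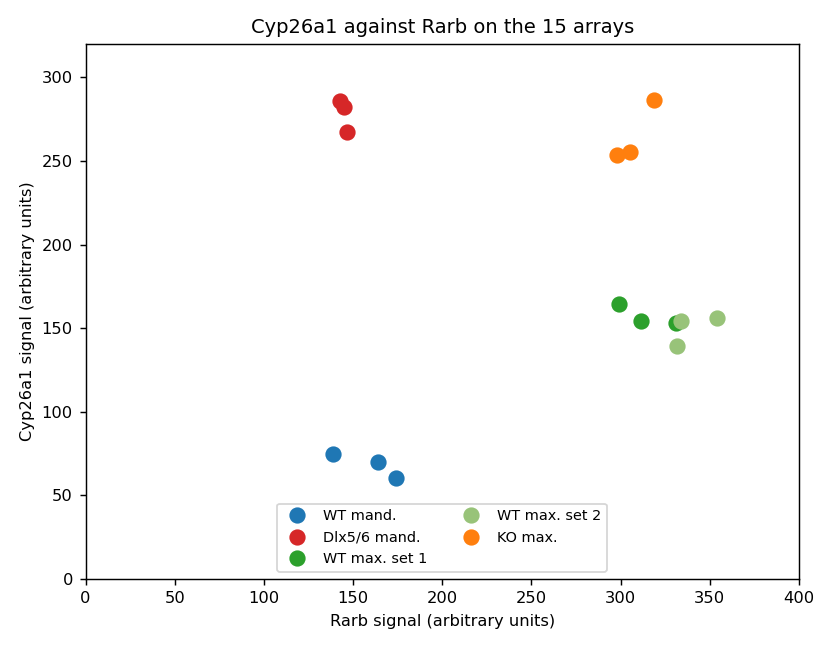
Signal of Cyp26a1 (y axis) against Rarb (x axis) on the 15 arrays, both in arbitrary units and coloured by group. Rarb separates the 6 mandibular arrays (139 to 174) from the 9 maxillary arrays (298 to 354), while the mutant arrays of each branch lie above the wild-type arrays in Cyp26a1.

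The other receptors showed no call in any comparison. Rarg, prominent in prechondrogenic mesenchyme, had signals of 347 to 370 in the wild-type mandibular branch (369.7, 367 and 347), 275 to 338 in the Dlx5/6 mutant, 283 to 380 in set 1, 277 to 295 in set 2 and 253 to 280 in the KO. Its largest difference, -0.22 in the Dlx5/6 mutant, was not called (95% interval -0.42 to -0.02, adjusted p = 0.318), and its other probe set gave 0.05 there; between the maxillary sets that probe set gave -0.41 (adjusted p = 0.063). Rara, the most widely expressed receptor gene, was dim, with 40.6 to 60.8 in the wild-type mandibular arrays, 32.5 to 46.6 in the Dlx5/6 mutant, 31.4 to 42.6 in set 1, 10.8 to 31.2 in set 2 and 2.29 to 28.0 in the KO. Its 95% intervals were wide, from -0.64 to 0.18 in the Dlx5/6 mutant and from -0.57 to 0.25 in the KO.

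The binding protein genes were both lower in the wild-type mandibular branch than in maxillary set 1. Crabp1, a marker of cranial crest, had signals of 2368, 2146 and 2231 in the wild-type mandibular branch and 2792, 2572 and 2544 in the Dlx5/6 mutant. It reached 3383, 3775 and 3450.2 in set 1, 3394, 3533 and 3033 in set 2, and 3987, 4019.8 and 4282 in the KO. Crabp1 was lower in the wild-type mandibular branch than in set 1 by 0.68 ± 0.06 (limma adjusted p = 1.35e-07) and in the Dlx5/6 mutant by 0.49 ± 0.06 (adjusted p = 7.73e-05). Its change of 0.19 in the Dlx5/6 mutant was not called (95% interval 0.06 to 0.32, adjusted p = 0.14), although no mutant array overlapped the wild-type mandibular arrays. In the KO Crabp1 rose by 0.31 ± 0.06 (adjusted p = 0.0126). That call was lost without KO replicate 3 (0.29, adjusted p = 0.0863) or set 2 replicate 3 (0.26, adjusted p = 0.106), with arrays shifted to a common median (0.25, adjusted p = 0.115), and against set 1 (0.15, adjusted p = 0.157).

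Crabp2, which hands retinoic acid to the receptors, had signals of 2967, 2822 and 2791 in the wild-type mandibular branch, 3162, 3302 and 3154 in the Dlx5/6 mutant, 3475, 3195 and 3456 in set 1, 4136, 4204 and 3866 in set 2, and 3594, 3423 and 3889 in the KO. It was lower in the wild-type mandibular branch than in set 1 by 0.26 ± 0.05 (limma adjusted p = 0.0046), a call lost with arrays shifted to a common median (-0.18, adjusted p = 0.204) and without the variance trend (adjusted p = 0.122). It was the member whose level differed between the wild-type maxillary sets, higher in set 2 by 0.20 ± 0.05 (adjusted p = 0.0198), and that call was lost without set 1 replicate 2 or set 2 replicate 1 or 2 (adjusted p from 0.0553 to 0.103). Neither mutant changed it at the threshold (0.11 in the Dlx5/6 mutant, adjusted p = 0.406, and -0.16 in the KO, adjusted p = 0.209).

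Counted by the brightest kept probe set, 4 of the 9 genes were called between the wild-type branches, all lower in the mandibular branch (Cyp26a1, Rarb, Crabp1 and Crabp2), against 3.56% of 13945 genes (2.01% lower and 1.55% higher). Their median log2 difference was -0.26, and that of all genes 0.004. At an unadjusted p under 0.05 limma gave 5 lower and 1 higher, and signals did not overlap for 5 of 9 genes, against 19.6% of all. With set 2 in place of set 1, which crosses the array sets, 5 were called, these 4 and Aldh1a3, against 11.3%. For the KO against set 1, also across the sets, 11.6% of genes were called. Of the members Cyp26a1 was then called up and Cyp26b1 and Aldh1a2 down, while Crabp1 was not called. In the Dlx5/6 mutant 2 of 9 were called (Cyp26a1 up and Aldh1a2 down), against 3.13% of genes (1.56% in each direction), and signals did not overlap for 6, against 20.7%. The count was 1 without mutant replicate 2 or wild-type mandibular replicate 1 or 3. In the KO 3 of 9 were called (Cyp26a1 and Crabp1 up, Aldh1a2 down), against 1.25% of genes (0.638% up and 0.617% down), and the count was 1 without KO replicate 3 or set 2 replicate 3. Signals did not overlap for 4, against 16.7%. Medians were -0.08 and -0.12, against -0.0075 and -0.0011 for all genes. Between the Dlx5/6 mutant mandibular and wild-type maxillary branches 3 were called (Cyp26a1 higher, Rarb and Crabp1 lower), against 0.782% of genes (0.258% higher and 0.523% lower), and signals did not overlap for 5, against 15.2%. Between the maxillary sets 1 was called, Crabp2, against 8.98% of genes (4.12% higher and 4.85% lower in set 2). That call was lost without any 1 of the 3 arrays named for Crabp2 above, and signals did not overlap for 3 members, against 26.4%. In the difference of the mutant effects 1 was called, Cyp26a1, against 1.44% of genes (0.681% higher and 0.76% lower in the Dlx5/6 mutant). The genes were listed with earlier results of these arrays known, so these counts describe them and are no independent evidence.

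**Figure D4:**
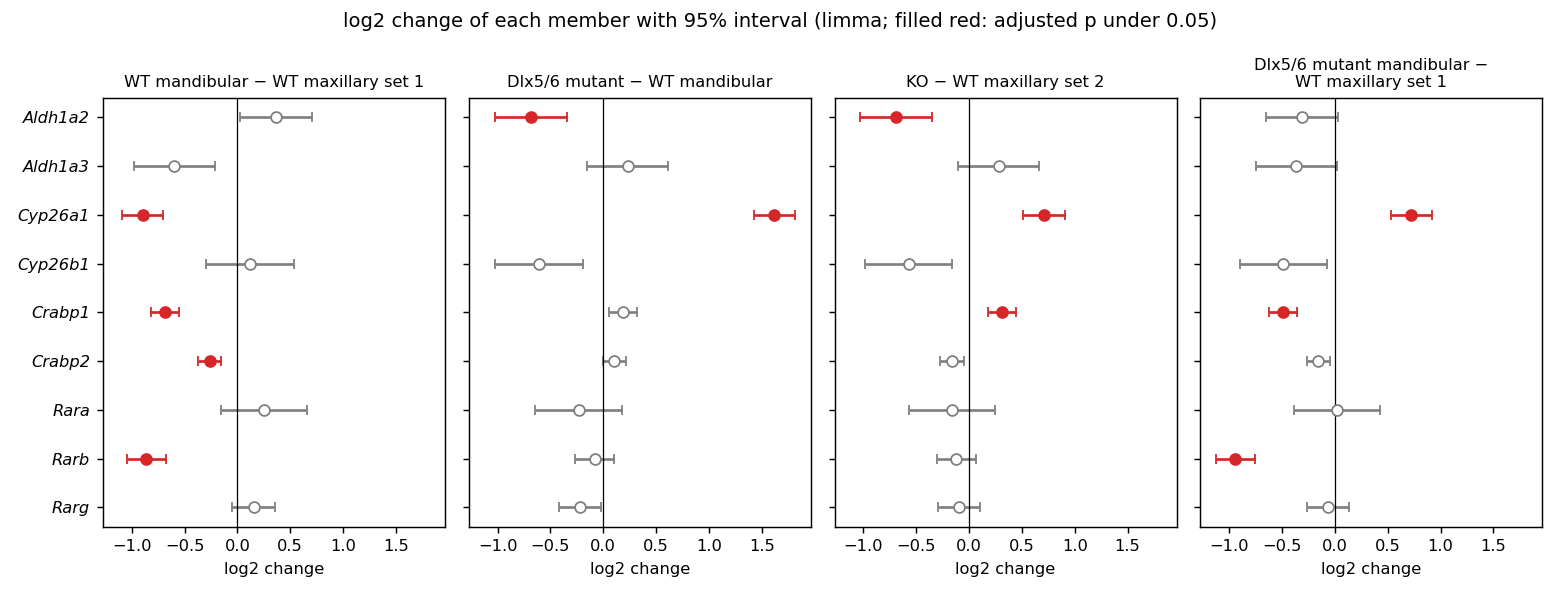
log2 change (x axis) of each of the 9 genes in 4 comparisons; points are limma estimates on the log2(signal + 32) scale, lines are 95% intervals, and filled red points passed an adjusted p under 0.05. Cyp26a1 lies at -0.90, 1.62, 0.71 and 0.72 from left to right, and Rarb at -0.86, -0.08, -0.12 and -0.94.

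Markers of other cells moved with some of these results. The summed signal of 11 sensory neuron and glia markers was 530.3 to 578 in the wild-type mandibular arrays, 574 to 633 in the Dlx5/6 mutant, 2917 to 3160.0 in set 1, 1287 to 1358 in set 2 and 1022 to 1074 in the KO. All 11 were called lower in the mandibular branch than in set 1. In the Dlx5/6 mutant 2 were called higher and 0 lower, against 3.13% of all genes. In the KO 3 were called lower and 0 higher, against 1.25%. Isl1 alone averaged 345 in the wild-type and 275 in the Dlx5/6 mandibular arrays, so the sum hides changes of dimmer markers. The mandibular differences of Cyp26a1 and Rarb were -0.90 and -0.86 from set 1, and -0.87 and -0.99 from set 2, which crosses the array sets. The median neuron sum was 3074 in set 1 and 1329 in set 2. The summed signal of 10 macrophage markers was 361 to 396 in the wild-type mandibular arrays, 559.9 to 604 in the Dlx5/6 mutant, 540.2 to 561 in set 1, 561 to 569 in set 2 and 779 to 876 in the KO, so it was higher, like Cyp26a1, in both mutants, where 1 and 2 of the 10 markers were called higher. In the Dlx5/6 mutant and set 1 the macrophage sums overlapped. Mean Cyp26a1 signal in the Dlx5/6 mutant was 1.77 times that in set 1. In the KO the endothelial sum was also higher, 906 to 1056 against 686 to 757, with 1 of 6 markers called. The epithelial sum was 2504 to 2592 in the KO against 2152 to 2260.0 in set 2, with none of 9 markers called by limma and 6 higher at an unadjusted p under 0.05. The erythroid sum of deposited signals was, like Cyp26a1, higher in both mutants. It was 25750 to 29330 against 23580 to 24550 in the mandibular branch and 27610 to 28590 against 24700 to 27500 in the maxillary branch. None of 4 markers was called by limma, and 0 and 1 were higher at an unadjusted p under 0.05. On the log2 scale of the tests their median changes were only -0.02 in the Dlx5/6 mutant and 0.06 in the KO. The muscle and core mesoderm sum, 347 to 353 in the wild-type mandibular arrays, was 192 to 248 in the Dlx5/6 mutant and 168 to 213 in set 1. It was 289 to 309 in the KO against 179 to 214 in set 2. Of its 6 markers 1 was called lower in the Dlx5/6 mutant and 1 higher in the KO. In the wild-type mandibular branch 2 of the 6 were called higher than in set 1, against 3.56% of all genes. The crest mesenchyme sum was 7587 to 8227 and 9108 to 9626 in the wild-type and Dlx5/6 mandibular arrays. It was 9129 to 9692 in set 1, apart from the wild-type mandibular arrays. In set 2 and the KO it was 9013 to 9415 and 7525 to 7767. Its 10 markers did not move together, with 3 called higher and 1 lower in the Dlx5/6 mutant. Relative to set 1, limma called 5 of the 10 down and 1 up in wild-type mandibular arrays, against 3.56% of all genes. In the KO 1 was called higher and 4 lower. That list holds Dlx1 and Dlx2, whose mean signals were 711 and 422 in set 2 and 209 and 3.36 in the KO. The part of these cells in the members' changes was not tested.

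The wider retinoid pathway was described next. That list held 28 genes of retinol uptake, retinaldehyde formation, RXR partners and receptor cofactors, and 21 were tested. None of the 21 was called by limma in the wild-type branch comparison, the Dlx5/6 mutant or the KO, where 3.56%, 3.13% and 1.25% of all genes were called, shares that come to less than 1 gene in a list of this size, and at an unadjusted p under 0.05 limma gave 1 higher and 2 lower, 3 higher and 2 lower, and 3 higher and 2 lower. Their medians were -0.03, -0.05 and 0.06. Between the maxillary sets 2 were called, Ttr, a carrier of retinol in blood, higher in set 2 by 0.95 ± 0.15 (limma adjusted p = 0.000289), and Nrip1, a receptor corepressor gene, lower by 0.27 ± 0.08 (adjusted p = 0.0425). Stra6, the receptor that brings retinol into cells, had mean signals of 55.0 and 92.4 in the wild-type and Dlx5/6 mandibular branch. It averaged 63.6 in set 2, 102.5 in the KO and 95.9 in set 1, so its KO difference depended on the control set. Set 2 stood at -0.38 from set 1 (limma adjusted p = 0.204). The Stra6 differences of 0.49 in the Dlx5/6 mutant (adjusted p = 0.169) and 0.48 in the KO against set 2 (adjusted p = 0.28) were not called. Rdh10, which makes retinaldehyde, was at -0.03 and 0.22 (adjusted p = 0.968 and 0.622), and Dhrs3, which turns it back to retinol, at -0.27 and 0.02 (adjusted p = 0.457 and 0.981). The partner gene Rxra was at 0.11 and 0.13 and Rxrb at -0.05 and 0.15.

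Among 22 genes known to respond to retinoic acid, 12 were tested. In the wild-type branch comparison 1 was higher in the mandibular branch (Meis1, 0.69) and 2 were lower (Meis2, -0.22, and Zfp703, -0.40; median of the list -0.07), so 3 of 12 were called against 3.56% of all genes. In the Dlx5/6 mutant 2 rose and 1 fell (median 0.05), again 3 of 12, against 3.13%, and in the KO 1 of 12 fell and none rose, against 1.25% (median 0.04; at an unadjusted p under 0.05 limma gave 3 lower and 0 higher). The list was chosen with earlier results of these arrays known. The Meis2 branch call (adjusted p = 0.0498) was lost in 21 of 30 other fits. The Zfp703 branch call was lost without wild-type mandibular replicate 3 (-0.33, adjusted p = 0.0897) or set 1 replicate 1 (-0.37, adjusted p = 0.0607) and with the mean over its probe sets (-0.18, adjusted p = 0.609), its other probe set being at 0.04. Meis1, a homeobox cofactor gene, had a mean signal of 308 in the wild-type mandibular branch and 155 in the Dlx5/6 mutant, where it fell by 0.84 ± 0.11 (limma adjusted p = 1.7e-05). In the KO it was not called (0.04, adjusted p = 0.942). Another Meis1 probe set fell by 0.80 in the Dlx5/6 mutant and was called, and the third, at 0.21, was not. Its relative Meis2 rose by 0.34 ± 0.06 there (adjusted p = 0.00128), with no call on its other 3 probe sets (0.16 to 0.21). Zfp703, a gene for a zinc finger corepressor, rose by 0.53 ± 0.09 in the Dlx5/6 mutant (adjusted p = 9.32e-04) and fell by 0.60 ± 0.09 in the KO (adjusted p = 5.76e-04), with signals of 363 and 533 and of 510.4 and 322. Its other probe set was not called in either (0.28 and 0.20), and in the KO its sign was the opposite. With the mean over both probe sets neither Zfp703 change was called (adjusted p = 0.114 and 0.608). Hoxa2, a Hox gene of the neighbouring arch and the hindbrain, failed the filter. None of the wider pathway genes and none of these responsive genes with a RefSeq window (20 and 11 genes) held the direct repeat with a spacer of 5 bases.

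**Figure D5:**
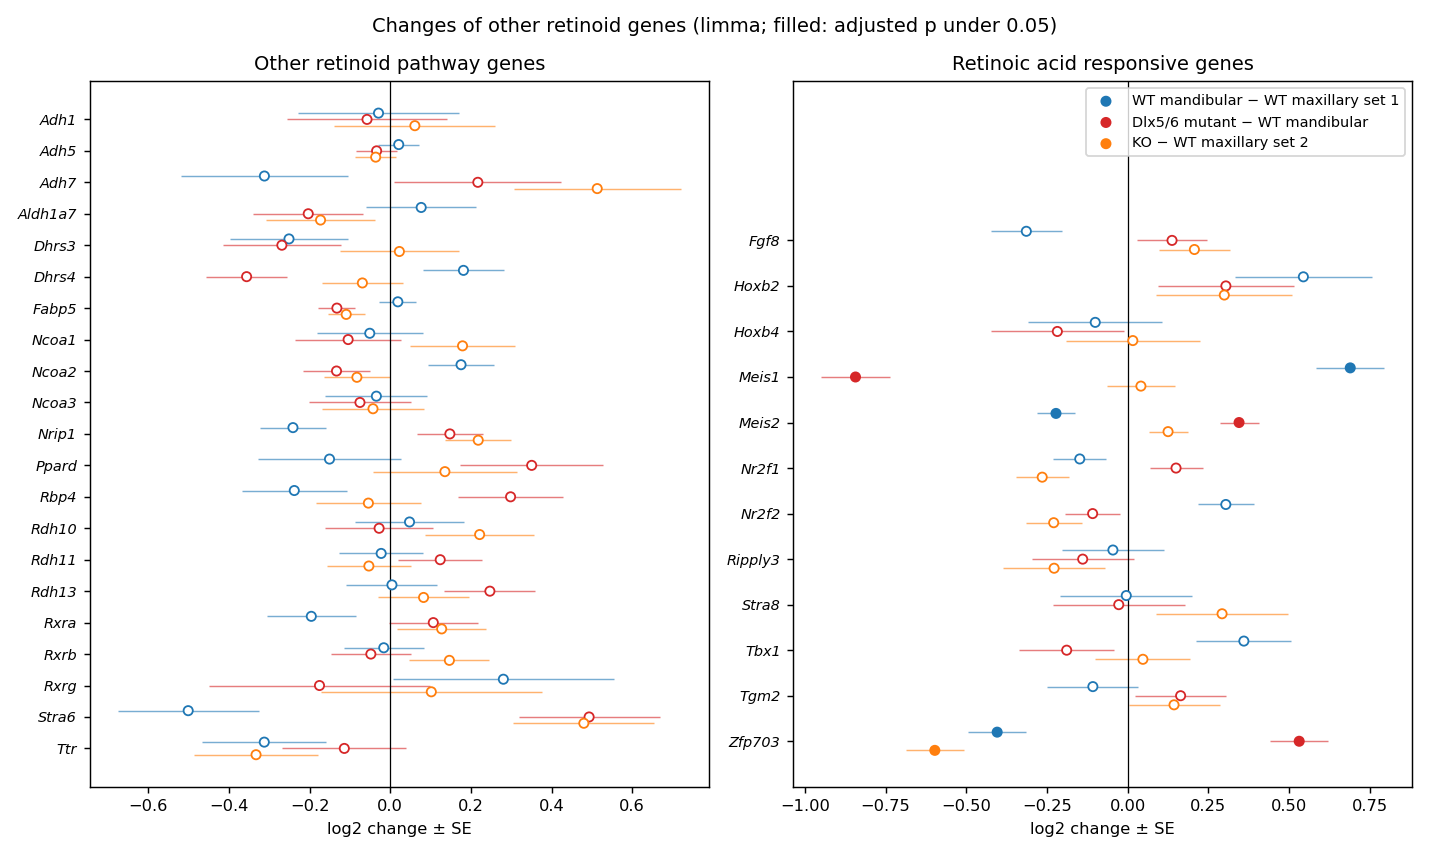
log2 change (x axis, ± SE) of 21 other retinoid pathway genes (left) and 12 genes that respond to retinoic acid (right) in 3 comparisons, by colour; filled points passed an adjusted p under 0.05 in limma. No pathway gene is filled, and Meis1, Meis2 and Zfp703 are filled on the right.

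For each called member the 3 genes most like it over the 15 arrays were found by Pearson correlation of log2 levels. They describe shared patterns across these groups and array sets only, with no test. For Cyp26a1 they were the immediate early gene Ier2 (r = 0.955), the KIT ligand gene Kitl (0.947) and the LIM cofactor gene Ldb2 (0.946). Kitl signal averaged 174 in the wild-type and 386 in the Dlx5/6 mandibular branch, 271 and 276 in sets 1 and 2, and 319 in the KO, the same order of mutant above wild type within each branch. Aldh1a2 was closest to the homeobox gene Shox2 (0.923), which averaged 229 and 119 in the wild-type and Dlx5/6 mandibular branch, 171 and 165 in the sets and 101 in the KO. Next came Gm6958 (0.895) and the zinc finger gene Zbtb16 (0.888). Rarb was closest to Ruvbl1 (0.914), Fap (0.897) and Rnf150 (0.887), and Crabp1 to Tnik (0.952), the small heat shock gene Cryab (0.930) and Spon1 (0.930). Crabp2 was closest to E130114P18Rik (0.917), Tmem128 (0.905) and Lyar (0.889), each of which was, like Crabp2, highest in set 2.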

How the data were processed

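The deposited data were linear signal intensity values from Affymetrix mouse arrays, 1 value for each probe set. The authors' summary and background steps are not given in the sources used here. With 2% trimmed at each end, the deposited intensities averaged 150.0 on all 15 arrays, so they had been scaled.

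Control probe sets (64) were dropped, signals converted to log2(signal + 32) and quantile normalized. A probe set was kept if it exceeded its array's 40th percentile on 3 or more arrays. Symbols came from the platform annotation (34958 probe sets with 1 symbol). A gene was represented by its brightest kept probe set, preferring those not marked _s_at or _x_at. One limma model (limma 3.58.1, R 4.3.3) had a mean for each group, 10 residual degrees of freedom and a variance trend with intensity. Two-sided p-values were adjusted (Benjamini-Hochberg) across 31677 probe sets and called under 0.05. The model was tested on simulated data.

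The number of arrays limits the precision. Residuals of arrays sharing a replicate number correlated between -0.096 and 0.085, and the numbers were not treated as pairing arrays. Members, lists and the control of each comparison were chosen with earlier results of these data known. Named genes were all members, genes of both retinoid lists called within an array set and Dlx genes as context. The 3 genes most like each called member were also named. Ttr, Nrip1, Stra6, Rdh10, Dhrs3, Rxra, Rxrb, Hoxa2, Isl1 and the failed markers were named outside these rules, after their values were seen. Alternatives changed scaling, constant, filter, replicate block, variance model, weights, threshold, probe sets, control group and single arrays.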

Additional observations from a re-analysis of the deposited data

Results flagged for a closer look

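Among the members and both retinoid lists, the effects of the mutants differed for 3 genes by limma's test of the difference itself. That test took the Dlx5/6 change in the mandibular branch minus the KO change in the maxillary branch, 0.05 adjusted. Of all 13945 genes 201 (1.44%) were called in it. Cyp26a1 rose in both and by 0.91 more on the log2 scale in the Dlx5/6 mutant. For Meis1 the difference was -0.88, with a fall in the Dlx5/6 mutant and no call in the KO. For Zfp703 it was 1.13, with a rise in the Dlx5/6 mutant and a fall in the KO on its brightest probe set; on its other probe set the difference was 0.08 and was not called (adjusted p = 0.971), nor was it with the mean over both (adjusted p = 0.152). The mutants also differed in branch and array set, which cannot be told apart from genotype here.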

How the results depend on the processing

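Apart from fits that left out an array, 81 of 88 member counts under other settings stayed within 1.5 times of the reported count. The replicate block left the counts at 4, 2, 3, 3, 1 and 1 in the order of the comparisons and changed none of the members' calls (Aldh1a2 in the KO, adjusted p = 0.0496). The Dlx5/6 count became 1 with no filter, without the variance trend or at an adjusted p under 0.01; the KO count became 1 without the trend or at 0.01; and the count between maxillary sets became 0 at those 2 settings, where 2 members had an unadjusted limma p under 0.05 in the reported fit. Leaving out single arrays gave 4 to 5 called members between the branches, 1 to 3 in the Dlx5/6 mutant, 1 to 3 in the KO, 3 in each fit of the mutant mandibular against the maxillary branch, 0 to 1 between the sets and 1 for the difference of the mutant effects. No called member changed direction in any fit. The calls of Cyp26a1 held in all fits of the 5 comparisons in which it was called. Its change in the Dlx5/6 mutant ran from 1.04 to 1.90, and in the KO from 0.50 to 0.79. Aldh1a2 lost its call in 7 of 29 fits for the Dlx5/6 mutant and in 15 of 30 for the KO, and Crabp1 in 6 of 30 for the KO. In the KO, Cyp26a1 and Aldh1a2 were at 0.71 and -0.69 with 32 added and at 0.79 and -1.01 with 8. Meis2 lost its call between the branches in 21 of 30 fits. Beyond the settings named, the cause was not tested. Low signals limit Aldh1a3, Rara and Cyp26b1, which lay near the filter on several arrays.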
